A study of Homo sapiens with 60 samples.

Results

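The respiratory chain of the inner mitochondrial membrane is built from proteins of 2 genomes, and the transcripts of both were counted here in A549 cells, a human lung adenocarcinoma line, kept for 24 h with one of 8 herbal extracts or with vehicle. The chain was taken as the 13 protein-coding genes of the mitochondrial genome and 89 protein-coding nuclear genes of complexes I to V, chosen by symbol, without pseudogenes and without the assembly factors of complex I. Together they are 102 of the 60675 gene identifiers of the expected-count table. The 60 libraries fall into 25 groups: 8 extracts at 500, 100 and 20 µg/mL, here called high, medium and low, and 1 vehicle group. These doses are those of the labels. The design text also mentions lower doses for some extracts, which no label shows. Ethanol extracts were Glycyrrhizae (licorice root), Ginseng, Poria and Atractylodis with 3 libraries a dose, and Angelicae and Paeoniae with 1 library a dose. Water extracts were Sibjeondaebo-tang with 3 libraries a dose and Palmul-tang with 2, replicates 2 and 3. The 3 vehicle libraries received DMSO, at 0.1% per the labels and 2% per the design text, and carry a sample code of their own. For the extract libraries the labels give no DMSO content. Nothing in the labels says whether replicates came from separate cultures, so p-values measure the spread between these libraries, which may be technical.

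Complexes I to IV pass electrons to oxygen, complexes I, III and IV also pump protons, and complex V, the ATP synthase, uses the proton gradient to make ATP. The mitochondrial genome encodes core subunits of complexes I, III, IV and V, is transcribed from both strands into long RNAs that are cut into shorter transcripts, and adds the RNAs of its own ribosome. All 4 subunits of complex II and all remaining subunits come from nuclear genes, whose proteins are imported. Of the members here, complex I has 7 mitochondrial and 38 nuclear genes, complex II has 4 nuclear genes, complex III has 1 and 9, complex IV has 3 and 19, and complex V has 2 and 19. NDUFA4, long listed with complex I, and its relative NDUFA4L2 were counted with complex IV, as was COX7A2L, which is known as a factor of supercomplex assembly.

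Some reading frames of the mitochondrial genome share bases, so that a read there belongs to both genes and the split of counts between them is uncertain. The pairs are shown because MT-ND4L and MT-ATP8 return in the results. Capitals mark the shared bases on GRCh38, plus strand, with 15 bases on either side, from the GENCODE 29 transcripts.
MT-ND4L and MT-ND4, chrM:10745-10781: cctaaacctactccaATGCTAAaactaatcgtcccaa
MT-ATP8 and MT-ATP6, chrM:8512-8587: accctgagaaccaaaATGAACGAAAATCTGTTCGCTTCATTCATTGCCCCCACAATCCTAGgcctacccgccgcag
The first overlap is 7 bases long and the second 46 bases, out of 297 and 207 bases of MT-ND4L and MT-ATP8.

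Nuclear members have promoters of their own, and 70 of the 89 had one in the RefSeq table (GRCh38.p14, 250 bases before to 50 after the start). Motifs known as sites of 3 factors that regulate respiratory genes were searched on both strands by exact letters: CCGGAAG for the ETS factor GABPA, GCATGCGC for NRF1 and AAGATGG for YY1. The ETS letters were in the promoters of 21 members (30%, against 12.2% of 27305 genes), the NRF1 letters in 14 (20.0%, against 3.68%) and the YY1 letters in 18 (25.7%, against 7.11%). At least 1 of the 3 was in 40 of 70 members (57.1%) and in 20.7% of all genes. As a contrast, CCAAT was in 35.7% of members and 39.7% of all genes, and TATAAA in 10.0% and 14.0%. A match describes these letters in this window, not a bound site. A promoter with ETS and NRF1 letters, that of the complex IV subunit COX5B, and one with YY1 letters, that of the complex V stalk subunit ATP5PB, are shown with the matches in capitals, since both genes return below.
COX5B, chr2:97645812-97646111, plus strand: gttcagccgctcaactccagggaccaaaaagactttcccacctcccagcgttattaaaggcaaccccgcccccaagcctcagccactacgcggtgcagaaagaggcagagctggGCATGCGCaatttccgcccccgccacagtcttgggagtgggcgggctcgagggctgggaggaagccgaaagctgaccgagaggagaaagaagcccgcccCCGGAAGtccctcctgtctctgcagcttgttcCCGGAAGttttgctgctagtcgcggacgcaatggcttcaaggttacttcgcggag
ATP5PB, chr1:111449214-111449513, plus strand: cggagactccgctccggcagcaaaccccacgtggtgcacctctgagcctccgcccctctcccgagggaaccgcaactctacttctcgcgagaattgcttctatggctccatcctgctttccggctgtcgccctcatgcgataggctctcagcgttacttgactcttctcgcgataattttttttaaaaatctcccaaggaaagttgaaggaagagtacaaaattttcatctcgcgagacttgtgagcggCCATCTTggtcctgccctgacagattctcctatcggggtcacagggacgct

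The libraries held 18602541 to 29764378 counts. Genes with counts above 0 numbered 21679 to 23442 in 59 libraries and 27991 in Poria low replicate 3. That library was kept in the fit, and the cause of its higher number was not tested. The epithelial keratin KRT8 stood at 2057 to 4509 counts per 1000000 (CPM, normalized by TMM) and ALDH1A1, high in A549, at 3030 to 4807 CPM. Of markers of other cells, the leukocyte gene PTPRC was at 0 in 53 libraries and the endothelial gene CDH5 in 50. Another endothelial gene, PECAM1 (0.0445 to 0.503 CPM), was read in every library. So were CD68 (14.9 to 75.8 CPM) and the fibroblast genes COL1A1 (1.43 to 2.96 CPM), COL3A1 (2.22 to 9.85 CPM) and DCN (3.00 to 6.14 CPM). The groups are bulk cultures, so fewer cells and less RNA per cell cannot be told apart.

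The 13 mitochondrial members held far more of each library than the 89 nuclear ones. Their share of all counts ran from 11.3% (Poria high, replicate 2) to 20.7% (Paeoniae low), with a median of 14.0% over 60 libraries. The nuclear members held 0.718% (Glycyrrhizae high, replicate 1) to 1.03% (vehicle, replicate 2), with a median of 0.885%. The ratio of mitochondrial to nuclear counts was 12.2 to 27.7, with a median of 15.9. Per kilobase of transcript, scaled to 1000000 over all genes, the summed level was 203100 to 344000 for the mitochondrial members and 13440 to 19520 for the nuclear ones.

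**Figure D1:**
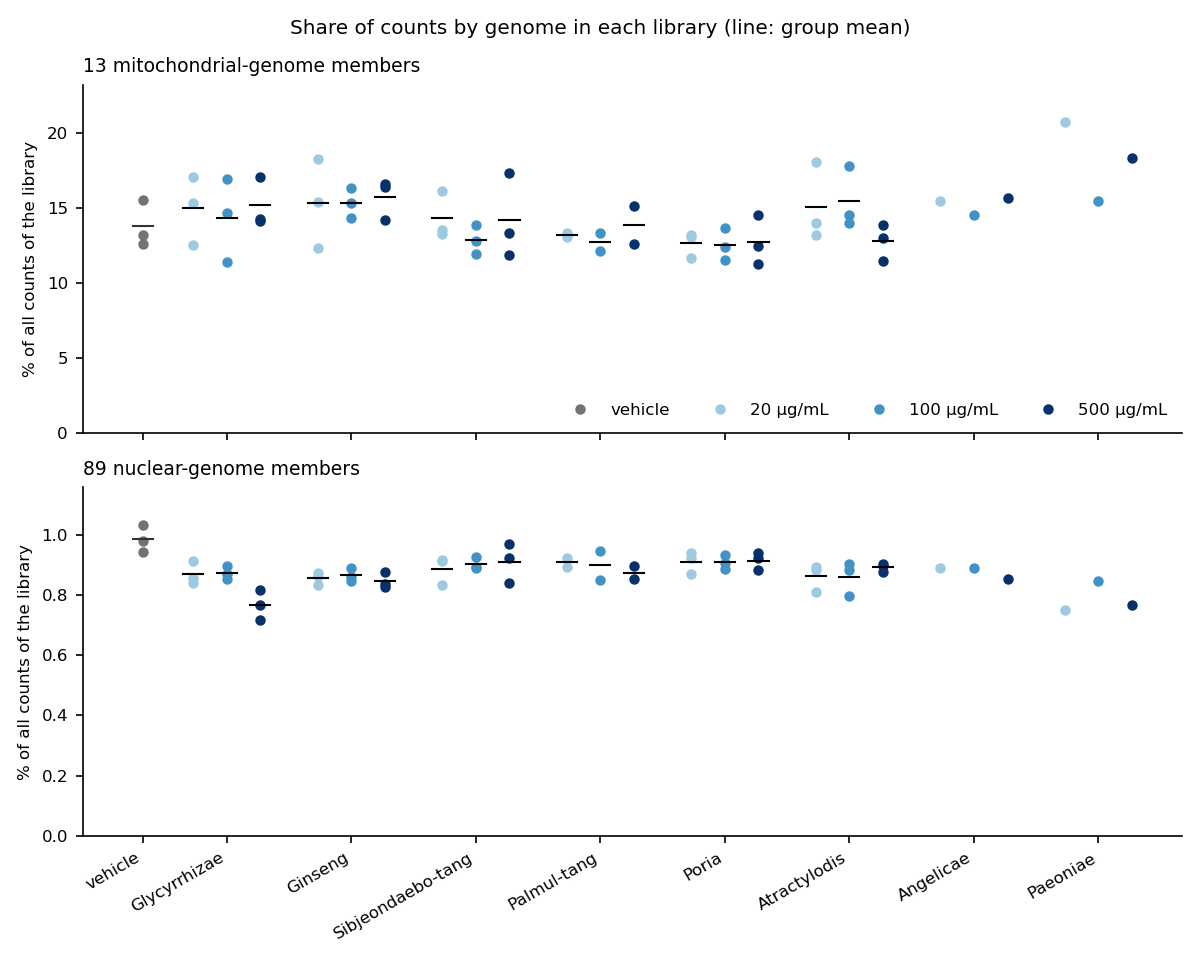
Percent of all counts of each library (y axis, linear from 0) in the 13 mitochondrial members (upper panel) and the 89 nuclear members (lower panel), by vehicle and extract (x axis), with dose in color, 1 point a library and a line at the group mean. The nuclear share of the 3 Glycyrrhizae high libraries (0.718 to 0.818%) lies below that of the 3 low libraries (0.841 to 0.915%), and the mitochondrial shares of these groups overlap.

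Levels on this scale ordered the mitochondrial members with MT-CO3 (median 47590, range 36890 to 57430) and MT-CO1 (31480 to 54140), subunits of complex IV, at the top. MT-ND6, the complex I subunit read from the other strand, was lowest at 2862 ± 736 (SD, n = 60). The ranges of MT-CO3 and MT-CO1 over all libraries overlapped, and their order within each library was not checked. Every library of MT-CO3 exceeded every library of MT-ND6. Among nuclear members COX6B1, a complex IV subunit facing the intermembrane space, led with 1305 ± 132 on the same scale, followed by the ATP synthase genes ATP5MF (mean 1052) and ATP5F1B (mean 803). By complex, the median level of nuclear members was 95.9 for complex I, 68.3 for complex II, 142 for complex III, 303 for complex IV and 251 for complex V. These levels depend on the 1 annotated transcript used for each gene. Its length was 13566 bases for SDHC of complex II and 8363 for NDUFA9 of complex I, against a median of 793 over the 82 tested nuclear members.

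A few nuclear members are forms of particular tissues and were hardly read. COX4I2, known from lung, COX6A2, known from heart and skeletal muscle, and COX8C, known from testis, had 0 counts in all 60 libraries. A count of 0 allows up to 0.101 to 0.161 CPM by library (3 counts, 95% confidence, counting error only). COX7A1, the heart and muscle form of COX7A2, had 0 to 8 counts, and COX6B2, COX7B2 and ATP5MGL had at most 5. These 7 did not pass the filter on low counts, which left 82 nuclear and 13 mitochondrial members among 17765 genes tested. NDUFC2-KCTD14 and ATP5MF-PTCD1 are read-through genes and UQCRHL an intronless copy of UQCRH, and how reads were divided between these and their partners is uncertain.

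Within groups the mitochondrial members varied more, and moved together. Over 54 replicated libraries the SD of log2 CPM around the group mean had a median of 0.267 for the 13 mitochondrial members, with MT-ND4L lowest (0.159) and MT-ATP8 highest (0.405). It was 0.0936 for the 77 nuclear members of 20 CPM or more and 0.071 for all 7151 such genes. The deviations of 2 mitochondrial members correlated with a median r of 0.828 (range 0.433 to 0.956), against 0.273 (-0.816 to 0.876) for 2 nuclear members, as a description over libraries that share depth and scaling. MT-CYB, the cytochrome b of complex III, followed the mean of the other 12 most closely (r = 0.972) and MT-ND4L least (r = 0.731). With this spread, the median standard error of a log2 difference between Glycyrrhizae high and low was 0.197 for mitochondrial and 0.0749 for nuclear members, so small changes were harder to detect in the mitochondrial genome.

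High was set against low dose of each extract to ask how the chain's transcripts differ across the dose range, on shared terms of one fit over all libraries and genes. In Glycyrrhizae, nuclear members fell at the high dose while no mitochondrial member was called. Of 82 nuclear members 28 fell (34.1%, against 18.4% of all genes tested) and 2 rose (against 18.5%), at an adjusted p under 0.05 (edgeR quasi-likelihood test, Benjamini-Hochberg over all genes). The median log2 change was -0.145 over nuclear members and 0.00159 over all genes. Of the 13 mitochondrial members 0 were called by edgeR or DESeq2 and 0 had an unadjusted p under 0.05, with a median log2 change of 0.04. By complex, 14 of 38 tested nuclear members of complex I fell, 3 of 4 of complex II, 3 of 9 of complex III, 7 of 18 of complex V and 1 of 13 of complex IV, where 2 also rose.

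**Figure D2:**
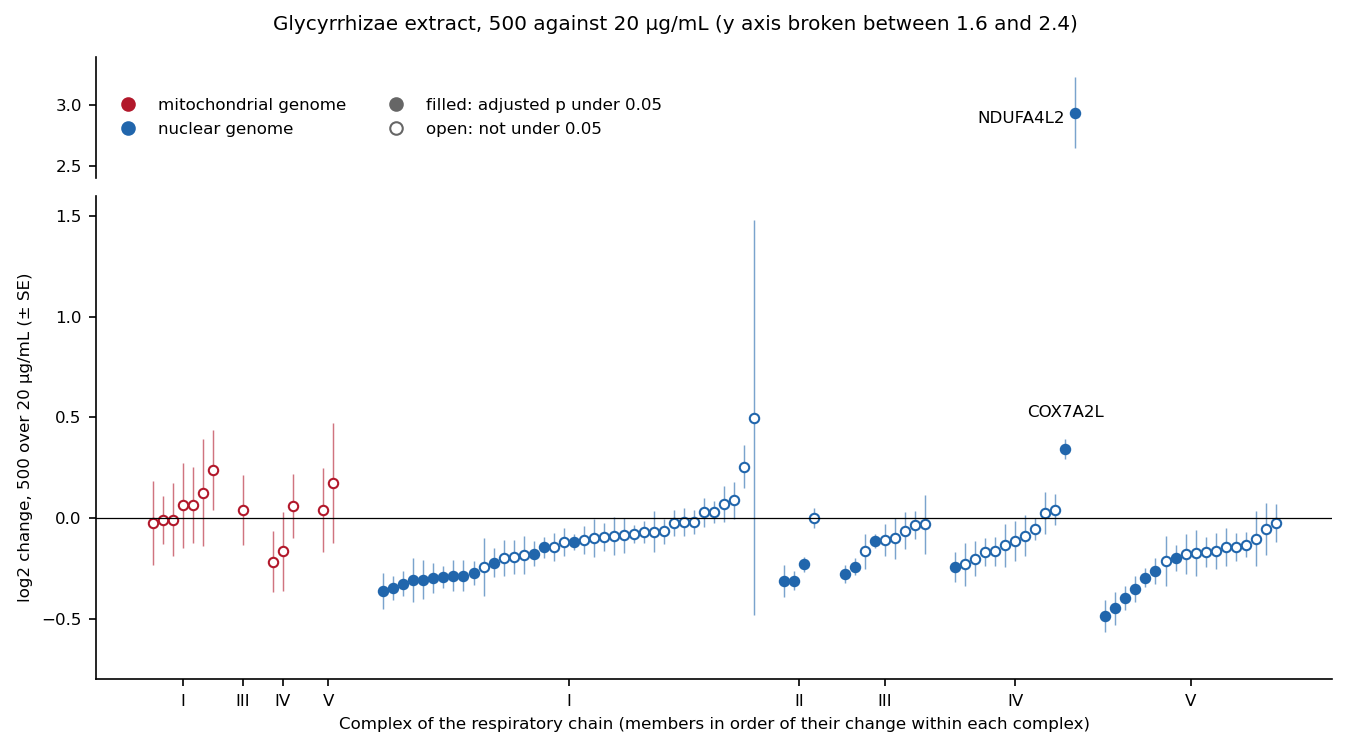
Log2 change of each tested member (y axis, broken between 1.6 and 2.4, bars are the standard error) for Glycyrrhizae at 500 over 20 µg/mL, by complex (x axis), mitochondrial members left and nuclear members right, filled where the adjusted p is under 0.05. The 13 mitochondrial points lie between -0.22 and 0.24 and are all open, and 28 nuclear points are filled below 0.

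In complex V the falls were in the catalytic head, the stalk and the c-ring that turns in the membrane. ATP5MC3, 1 of the 3 genes for the same mature c subunit, was at 171, 162 and 172 CPM at the high dose of Glycyrrhizae, against 231, 251 and 225 CPM at the low dose. The high-dose libraries were all lower, and the groups did not overlap. It fell by 0.49 ± 0.08 (log2 ± SE, adjusted p = 2.85e-06, edgeR).
ATP5MC1, another c subunit gene, was at 77.4, 79.7 and 93.3 CPM at the high dose, against 108, 126 and 107 CPM at the low dose, again without overlap, and fell by 0.45 ± 0.08 (adjusted p = 1.69e-05, edgeR). ATP5MC2, the third such gene, changed by -0.02 ± 0.10 with overlapping groups (adjusted p = 0.881, edgeR). The head subunit ATP5F1A was at 210, 226 and 232 CPM at the high dose, against 283, 308 and 288 CPM at the low dose, and fell by 0.40 ± 0.06 (adjusted p = 7.60e-07, edgeR). Its catalytic partner ATP5F1B (668, 709 and 743 CPM, against 859, 983 and 866 CPM) fell by 0.35 ± 0.06. ATP5PB, whose promoter is printed above, fell by 0.30 ± 0.05 (adjusted p = 8.24e-07, edgeR). In each of these 5 genes that fell, all 3 high-dose libraries were below all 3 low-dose libraries.

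Complex II, which also serves the tricarboxylic acid cycle, has only nuclear subunits. SDHA, its flavoprotein, was at 92.5, 96.4 and 103 CPM at the high dose of Glycyrrhizae, against 118, 123 and 122 CPM at the low dose. The groups did not overlap, and SDHA fell by 0.31 ± 0.05 (adjusted p = 7.13e-07, edgeR). The membrane anchors SDHC (-0.23 ± 0.04) and SDHD fell too. SDHB, the iron-sulfur subunit, was at 72.8 ± 2.03 CPM at the high dose and 72.9 ± 2.71 CPM at the low dose (SD, n = 3 each) and was not called.

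In complex I, the iron-sulfur subunit NDUFS1 was at 94.5, 102 and 111 CPM at the high dose of Glycyrrhizae, against 122, 139 and 125 CPM at the low dose. No high-dose library reached a low-dose one, and NDUFS1 fell by 0.33 ± 0.06 (adjusted p = 3.41e-05, edgeR). NDUFA5 (-0.35), NDUFA9 (-0.29), NDUFV2 (-0.27) and NDUFB2 (-0.36) were among the other 13 that fell. NDUFV1, the subunit that takes electrons from NADH, changed by -0.08 ± 0.04 and NDUFB8 by -0.12 ± 0.07, and neither was called. In complex III the Rieske protein UQCRFS1 was at 239, 236 and 245 CPM at the high dose, against 297, 289 and 287 CPM at the low dose. These groups were apart, and it fell by 0.28 ± 0.04 (adjusted p = 1.14e-06, edgeR), as did the core protein UQCRC1 (-0.24 ± 0.04).

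Both genes that rose were counted with complex IV. NDUFA4L2 (chromosome 12, 57234903 to 57240715, minus strand, GRCh38), a gene known to be induced in hypoxia, had 79, 73 and 74 counts at the high dose of Glycyrrhizae, against 9, 10 and 12 counts at the low dose. All 3 high-dose libraries were far above the rest, and the medium dose (13, 10 and 10 counts) and vehicle (10, 16 and 3 counts) lay near the low dose. It rose by 2.94 ± 0.29 (log2 ± SE, adjusted p = 1.91e-11, edgeR) to 2.98 ± 0.213 CPM, against 0.383 ± 0.0411 CPM at the low dose (SD, n = 3 each), which is still a low level.
COX7A2L was at 91.2, 90.7 and 95.3 CPM at the high dose, against 75.2, 75.5 and 67.9 CPM at the low dose, without overlap. It rose by 0.34 ± 0.05 (adjusted p = 1.39e-07, edgeR). COX6B1 was the single complex IV member that fell, a call lost without high replicate 2 or low replicate 3. COX4I1 (-0.17, adjusted p = 0.0579, edgeR), NDUFA4 (-0.23, adjusted p = 0.0911, edgeR) and COX5B (-0.17, adjusted p = 0.0708, edgeR) were not called.

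The mitochondrial members showed no such separation. MT-CO1 was at 46910, 36440 and 36690 CPM at the high dose of Glycyrrhizae, against 39290, 30650 and 45170 CPM at the low dose. The groups overlapped, as they did for all 13 mitochondrial members, and the log2 change of MT-CO1 was 0.06 ± 0.16. The members furthest from 0 were MT-ND4 of complex I (0.24 ± 0.20; 28880, 22640 and 21740 CPM at the high dose, against 22200, 15930 and 23960 CPM at the low dose) and MT-CO3 (-0.22 ± 0.15). The share of all 13 was 15.2 ± 1.65% at the high dose and 15.0 ± 2.30% at the low dose (SD, n = 3 each), while the nuclear share was 0.768 ± 0.05% and 0.871 ± 0.0390%. With no filter on low counts 4 mitochondrial members were called, MT-ND4 and MT-ATP8 higher and MT-CO3 and MT-CO2 lower. The share of all genes called without the filter was not counted, so these 4 cannot be set beside it. Of the 30 nuclear calls, 20 held under all 13 alternatives tried. Among those lost in at least 1 alternative were ATP5PO, COX6B1, NDUFA2, NDUFA10, NDUFB1 and UQCRC2.

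**Figure D3:**
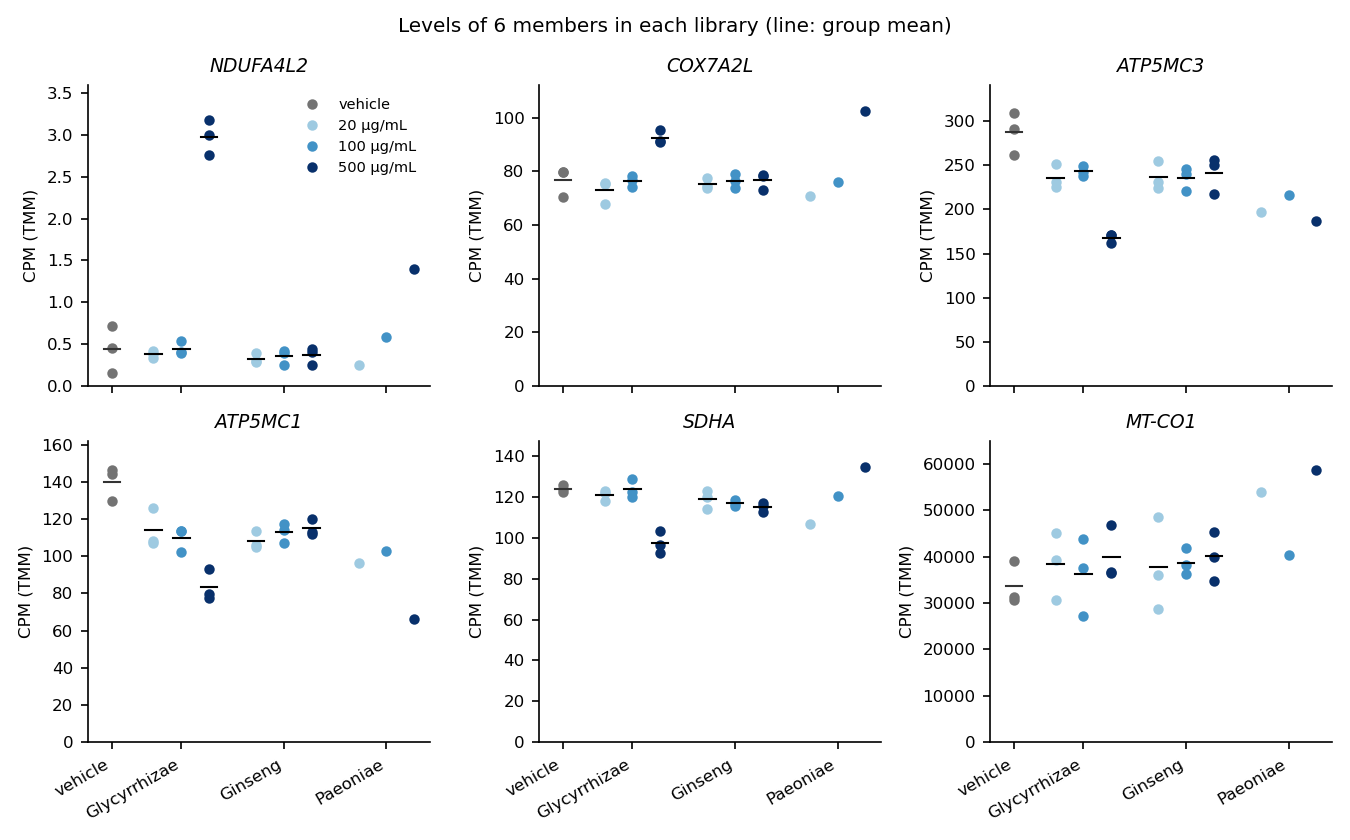
Normalized CPM of 6 members (y axes, linear from 0) in each library of the vehicle, Glycyrrhizae, Ginseng and Paeoniae groups (x axis), with dose in color, 1 point a library and a line at the mean of replicated groups. NDUFA4L2 and COX7A2L are higher, and ATP5MC3, ATP5MC1 and SDHA lower, in the 3 Glycyrrhizae libraries at 500 µg/mL than in those at 20 µg/mL, and MT-CO1 overlaps.

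Promoter letters and transcript length were also set beside the calls, as descriptions. Of the 28 members that fell in Glycyrrhizae, 22 had a promoter in the table and 13 of these held ETS, NRF1 or YY1 letters, against 27 of 44 among the other 54 tested members. At the median transcript length of 793 bases, 6 of the 41 shorter and 22 of the 41 longer members fell. Beside these, 15.2% of 564 coding genes as short and 18.4% of all genes tested fell, and longer coding genes were not counted apart. The median log2 change was -0.132 over the shorter and -0.199 over the longer members, so the sizes of change differed less than the counts of calls.

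The medium dose of Glycyrrhizae did not show the change. Set against the low dose, 0 of 95 members were called by edgeR (0.788% of all genes) and 0 had an unadjusted p under 0.05. ATP5F1A was at 272, 327 and 302 CPM and SDHA at 122, 129 and 120 CPM at the medium dose, where the low dose had 283, 308 and 288 CPM and 118, 123 and 122 CPM. Both genes had lower values in every library of the high dose than of the medium dose.

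In the other extracts with replicates, no member was called between the high and the low dose by edgeR or DESeq2. Over all genes edgeR called 1.2% in Ginseng, 3.78% in Sibjeondaebo-tang, 2.08% in Palmul-tang, 1.55% in Poria and 0.208% in Atractylodis. Unadjusted p-values under 0.05 were found for 0, 5, 1, 2 and 6 nuclear members in that order of extracts, and for 0, 0, 0, 1 and 1 mitochondrial members. In Atractylodis all 13 mitochondrial members were below 0, from -0.41 (MT-ND2) to -0.08 (MT-ND4L), and their share was 13, 11.5 and 13.9% at the high dose, against 13.2, 14.0 and 18.1% at the low dose. These groups overlapped, the third low-dose library was the highest, and 12 of the 13 were called lower only with no filter on low counts. The all-gene share without the filter was not counted. The medium dose against the low gave 0 called members by edgeR or DESeq2 in each replicated extract, with 0.0788% of genes called in Sibjeondaebo-tang and 0% in each of Ginseng, Palmul-tang, Poria and Atractylodis. Unadjusted p-values under 0.05 in these were found for 1 nuclear member in Sibjeondaebo-tang, 2 in Palmul-tang, 1 in Poria and 0 in the others, and for 0 mitochondrial members.

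Glycyrrhizae and Ginseng share a sample code set, and the difference between their dose changes was tested as an interaction. The change of 16 nuclear members was lower in Glycyrrhizae (against 11.3% of all genes) and that of 2 was higher (against 9.72%), while 0 of 13 mitochondrial members were called by edgeR (adjusted p under 0.05) or DESeq2 and 0 had an unadjusted p under 0.05. The median standard error of this difference was 0.279 for mitochondrial and 0.106 for nuclear members. ATP5PB averaged 97.4 ± 4.34 CPM at the high and 120 ± 3.91 CPM at the low dose of Glycyrrhizae, where Ginseng had 117 ± 2.77 and 114 ± 3.05 CPM at its high and low dose (SD, n = 3 each). The difference of the log2 changes was -0.34 ± 0.06 (adjusted p = 8.26e-05, edgeR). COX7A2L averaged 92.4 ± 2.50 and 72.9 ± 4.30 CPM in Glycyrrhizae high and low, and 76.6 ± 3.13 and 75.4 ± 1.92 CPM in Ginseng high and low, a difference of 0.32 ± 0.07 (adjusted p = 0.000426, edgeR). For NDUFA4L2 the difference was 2.77 ± 0.52 (adjusted p = 5.44e-05, edgeR). The same test gave 0 members for Poria minus Atractylodis (0.0732% of genes) and for Sibjeondaebo-tang minus Palmul-tang (0%), by edgeR and by DESeq2. Unadjusted p-values under 0.05 were found there for 4 nuclear members in each pair, and for 1 mitochondrial member in the first of these pairs and 0 in the second. For Glycyrrhizae minus Ginseng, 7 of the 18 members were called under all 19 alternatives.

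Each replicated extract was also set against the vehicle, at the high dose and at the low dose, the low dose being added after seeing the data. At the high dose 14 to 70 of the 82 nuclear members fell, by extract, and at the low dose 18 to 49. The 12 comparisons share the same 3 vehicle libraries, so they are not independent. The labels give a DMSO content for the vehicle libraries alone, so sample code, solvent and extract cannot be told apart here. At the high dose the members that fell were 70 of 82 in Glycyrrhizae (23.5% of all genes), 43 in Ginseng (13.7%), 14 in Sibjeondaebo-tang (6.11%), 36 in Palmul-tang (10%), 23 in Poria (6.41%) and 51 in Atractylodis (12.3%). Those that rose were 2 (23.2%), 2 (15.2%), 1 (9.04%), 1 (12.1%), 1 (9.88%) and 1 (13.8%) in the same order. At the low dose 39 fell in Glycyrrhizae (14.2%), 49 in Ginseng (14.2%), 37 in Sibjeondaebo-tang (11.5%), 18 in Palmul-tang (6.72%), 37 in Poria (8.65%) and 48 in Atractylodis (11%). Those that rose at the low dose were 2 (14.6%), 2 (14.6%), 2 (12.6%), 1 (8.71%), 1 (10.9%) and 1 (12.7%). Leaving out 1 library moved several of these counts by over 1.5 times, as the closing section lists.

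**Figure D4:**
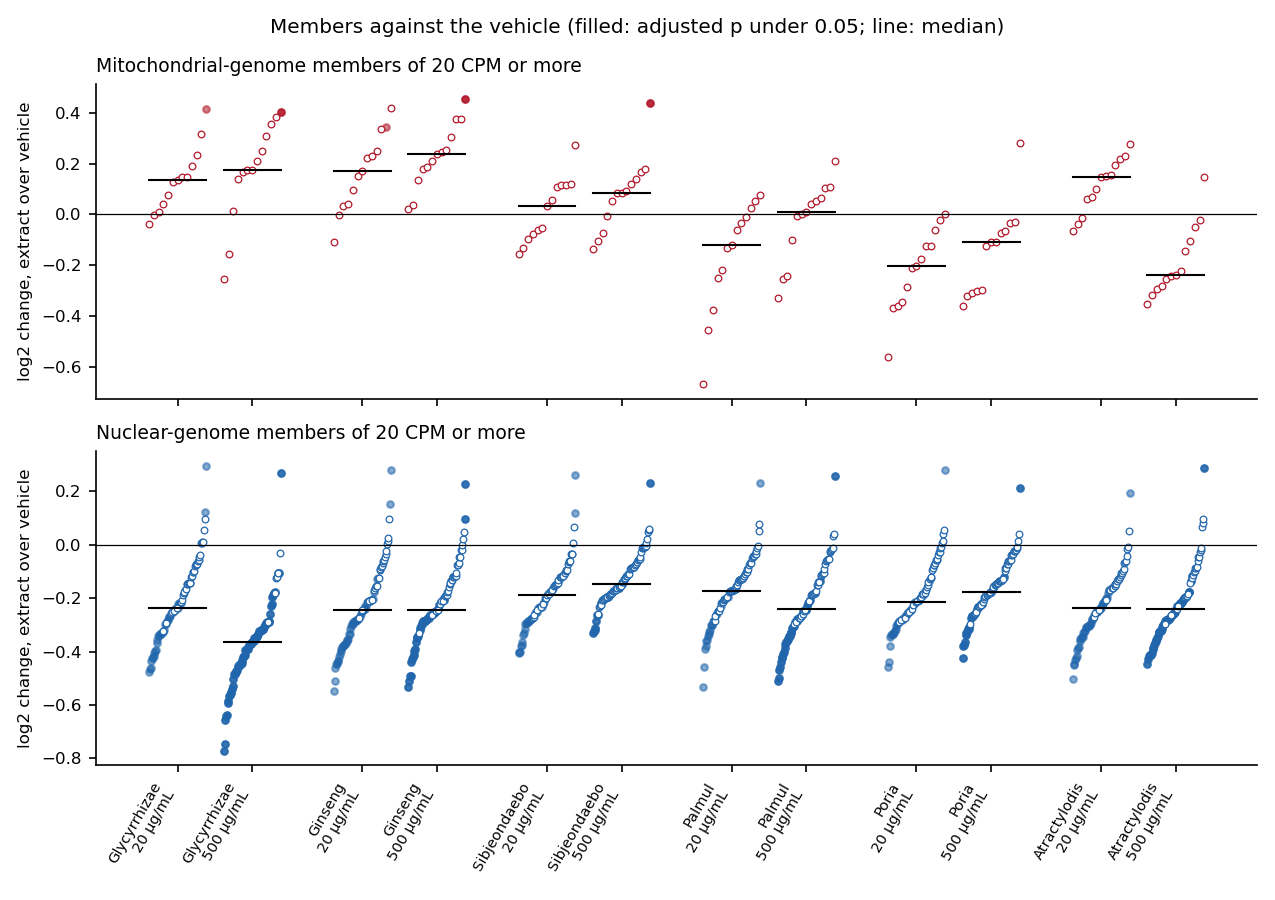
Log2 change against the vehicle (y axis) of each mitochondrial (upper panel) and nuclear (lower panel) member of 20 CPM or more, for 6 extracts at 20 and 500 µg/mL (x axis), filled where the adjusted p is under 0.05, with a line at the median. Most nuclear points lie below 0 at both doses, and MT-ND4L is the mitochondrial member that is filled.

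COX5B, a nuclear subunit of complex IV, was at 70.3 to 92.1 CPM (median 83.1) in the 17 high-dose libraries of these extracts, against 105, 119 and 107 CPM in the vehicle. No high-dose library reached a vehicle library. It fell by 0.59 ± 0.07 in Glycyrrhizae, 0.49 ± 0.07 in Ginseng, 0.31 ± 0.07 in Sibjeondaebo-tang, 0.40 ± 0.08 in Palmul-tang, 0.34 ± 0.07 in Poria and 0.36 ± 0.07 in Atractylodis at the high dose. In the 17 low-dose libraries COX5B was at 72.1 to 92.5 CPM, also below the vehicle.
NDUFV1 was at 135 to 164 CPM in the high-dose libraries and 133 to 157 CPM in the low-dose libraries, against 176, 180 and 169 CPM in the vehicle, again without overlap. NDUFS1 went the other way, with 116 to 141 CPM (median 125) in the low-dose libraries, against 99.5, 104 and 111 CPM in the vehicle. It was higher than vehicle by 0.30 ± 0.06 in Glycyrrhizae low (adjusted p = 0.000312, edgeR), while Glycyrrhizae high differed from the vehicle by -0.03 ± 0.06 (adjusted p = 0.725, edgeR). NDUFS1 was called higher than the vehicle in 6 of 6 extracts at the low dose. At the high dose it was called higher in 5 of 6, all but Glycyrrhizae.

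Transcript length moved with the vehicle comparisons, a description added after seeing the data. Across the 82 nuclear members Spearman's rho of length with the log2 change was 0.332 to 0.577 over the 12 comparisons, and across 13965 coding genes, which are not independent replicates, 0.212 to 0.433. The split by length differed between comparisons. In Ginseng low against vehicle 32 of the 41 shorter members fell and 17 of the 41 longer ones, beside 41.8% of 564 coding genes as short. In Glycyrrhizae high the counts were 37 and 33, in Sibjeondaebo-tang high 8 and 6 and in Poria high 12 and 11, beside 40.1, 14.5 and 22.0% of these coding genes. For Glycyrrhizae high against low, rho was -0.0987 across members. The part of length in the vehicle results was not tested.

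In the fit over all libraries the mitochondrial member called against the vehicle was MT-ND4L, whose end lies in the overlap printed above. It was at 1980, 1785 and 2225 CPM in Glycyrrhizae high and 2076, 1965 and 2168 CPM in Ginseng high, against 1764, 1451 and 1311 CPM in the vehicle. All 6 extract libraries were above the 3 vehicle libraries. It rose by 0.40 ± 0.12 in Glycyrrhizae high (adjusted p = 0.00464, edgeR), 0.46 ± 0.12 in Ginseng high (adjusted p = 0.00307, edgeR) and 0.44 ± 0.12 in Sibjeondaebo-tang high (adjusted p = 0.00854, edgeR), and at the low dose in Glycyrrhizae and Ginseng. Each is 1 of 13 members (7.69%), where 23.2, 15.2 and 9.04% of all genes rose at the high dose and 14.6% in each at the low dose. MT-ND4L also had the smallest spread of the 13 (SD 0.159, against a median of 0.267), so a given change was easier to call in it. Larger mitochondrial differences, down to -0.669 in Palmul-tang low, were not called. The Sibjeondaebo-tang call was lost without its replicate 1, without vehicle replicate 3 and with only the compared groups fitted, the Glycyrrhizae low call without vehicle replicate 3, and the Ginseng low call without its replicate 1 or 3 or vehicle replicate 2 or 3. The number of mitochondrial calls at the high dose also depended on the fit, with 12 in Glycyrrhizae and 10 in Ginseng when no filter on low counts was used and 4 in each with only the compared groups fitted. All-gene shares were not counted under these settings.

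The RNAs of the mitochondrial ribosome, which are no members, are made from the same genome. They held 5.69, 5.07 and 5.06% of counts at the high dose of Glycyrrhizae, against 4.19, 3.76 and 4.38% at the low dose, without overlap. The large-subunit RNA MT-RNR2 rose by 0.35 ± 0.12 (adjusted p = 0.0195, edgeR), and the small-subunit RNA MT-RNR1 changed by 0.43 ± 0.20 (adjusted p = 0.0845, edgeR). Their ratio to the counts of the 13 mitochondrial members was 0.333, 0.355 and 0.357 in the 3 Glycyrrhizae high libraries, the 3 highest of 60, and 0.323 in Paeoniae high. The difference from Ginseng's dose change was not called for MT-RNR2 (0.34 ± 0.17, adjusted p = 0.167, edgeR). In libraries selected for messenger RNA the share of ribosomal RNA also depends on that selection, and its part was not tested.

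Other genes that serve the chain were counted in the same comparison, Glycyrrhizae high against low, in which 18.4% of all genes tested fell and 18.5% rose. Of 49 assembly factors 16 fell and 4 rose. COX20, which guides the insertion of a complex IV core subunit, averaged 36.7 ± 1.02 CPM at the high dose and 51.0 ± 0.784 CPM at the low dose (SD, n = 3 each) and fell by 0.48 ± 0.06 (adjusted p = 6.74e-09, edgeR). COA3 (-0.41), COX16 (-0.49) and the copper carrier SCO2 (-0.48), also of complex IV assembly, fell as well. Of 18 genes of mitochondrial RNA processing and stability 9 fell and 3 rose, the rises near the all-gene share. FASTKD5, needed to process mitochondrial transcripts that lack flanking tRNAs, was at 53.2 ± 1.75 CPM at the high dose and 72.6 ± 2.73 CPM at the low dose, and ELAC2, which trims tRNA ends, fell by 0.34 ± 0.04. Of 16 genes of mitochondrial DNA transcription and replication 3 fell and 3 rose, which is near the all-gene shares, with MTERF2 (-0.56) and TOP1MT (0.29) as the members with the smallest adjusted p.

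Beside the same all-gene shares of 18.4% lower and 18.5% higher, 3 of 12 nuclear regulators of respiratory genes fell, which is close to that share, and 1 rose. TFEB, a regulator of lysosomal genes, was at 6.89 ± 0.269 CPM at the high dose and 13.4 ± 0.699 CPM at the low dose (log2 change -0.96), and GABPB1, a partner of GABPA, rose by 0.21 ± 0.06. Of 16 tricarboxylic acid cycle genes 9 fell and 1 rose, with citrate synthase (CS, -0.27 ± 0.04) and PDHB of pyruvate dehydrogenase (-0.39 ± 0.06) among those that fell. Of 23 electron carrier and supercomplex genes 8 fell and 2 rose, and COQ8A of coenzyme Q synthesis fell by 0.59 ± 0.07. Of 78 mitochondrial ribosomal proteins 15 fell and 13 rose, near the all-gene shares, with a median of -0.00168. Median log2 changes of the other lists lay between -0.182 (tricarboxylic acid cycle) and -0.0746 (transcription and replication). Of 388 nuclear copies of mitochondrial genes 9 could be tested and 1 rose, and the copies held 0.134 to 0.433% of counts.

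Paeoniae and Angelicae had 1 library a dose, so their values have no replicate check. The Paeoniae low library had the highest mitochondrial share of all 60 (20.7%, where the medium and high dose had 15.5 and 18.3%) and the highest share of nuclear copies (0.433%). Each Paeoniae difference from the low dose rests on it, and the median log2 difference of the 13 mitochondrial members was -0.577 at the medium and -0.249 at the high dose. In Paeoniae NDUFA4L2 had 5, 14 and 28 counts at the low, medium and high dose, and COX7A2L was at 70.8, 76.1 and 102 CPM. ATP5MC1 was at 96.5, 103 and 66.2 CPM, and SDHA at 107, 120 and 135 CPM. Of the 28 members that fell in Glycyrrhizae, 11 were lower at the high than the low dose in Paeoniae (median log2 of CPM + 1 difference 0.098) and 25 in Angelicae (median -0.0772). Over all 82 tested nuclear members this median was 0.0651 in Paeoniae and -0.055 in Angelicae, so the 28 lay near the whole nuclear set. Over all genes tested it was -0.000371 and 0.00415. Past 1.25-fold, 15 of 82 nuclear members were higher in Paeoniae high (22.2% of all genes) and 8 lower (21.5%), and 0 and 3 of the 13 mitochondrial members. In Angelicae 0 nuclear members were higher (2.98%) and 2 lower (3.69%), and 0 mitochondrial members passed that fold.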

How the data were processed

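Messenger RNA libraries (directional kit, paired reads) were made from A549 cells. Per the submitters' processing notes, FastQC 0.11.9, Trim Galore 0.6.5, STAR 2.7.3a, RSEM 1.3.3 and GRCh38 were used, and the authors deposited RSEM expected counts per Ensembl gene. Which annotation release and strand option were used is not given in the sources used here. All values were rounded, 76.0% of those above 0 being whole already (within 1e-09). The table has 270 columns, of which 60 matched the labels and 210 were not used. Symbols came from GENCODE 29, which matched 57055 identifiers. A wortmannin control named in the design text was not analysed here.

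Counts were scaled by TMM and filtered with filterByExpr, which left 17765 genes. One edgeR 4.0.16 quasi-likelihood fit (R 4.3.3) with a mean per group over all 60 libraries (35 residual degrees of freedom) gave every comparison, with Benjamini-Hochberg adjustment over all genes. Steps were tested on simulated data. The common biological coefficient of variation was 5.59%, and totals per library had a median of 24500712. Replicate libraries differed by more than sampling noise (chi-square per degree of freedom 2.59 to 36.6 over 51 pairs). Levels per kilobase used the length of 1 main transcript a gene.

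Named nuclear genes were those with the smallest adjusted p, those with the largest changes for Glycyrrhizae, and a list of 16. Members and lists were chosen with earlier results of these data known, and the low dose against vehicle and the length description were added after seeing the data. Alternatives were DESeq2 1.42.0, DESeq2-type (RLE) scaling, no filter, no TMM, the mitochondrial genome left out of scaling, only the groups compared, a replicate block and leaving out each library.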

Additional observations from a re-analysis of the deposited data

Results flagged for a closer look

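The change of 18 nuclear members between high and low dose differed between Glycyrrhizae and Ginseng by the interaction term of the edgeR fit (adjusted p under 0.05 over all genes, 3 libraries a group). As differences of log2 changes, Glycyrrhizae minus Ginseng, ATP synthase genes gave -0.535 for ATP5MC1, -0.512 for ATP5MC3, -0.336 for ATP5PB, -0.326 for ATP5F1A, -0.298 for ATP5F1B and -0.272 for ATP5F1C. Complex I genes gave -0.354 for NDUFB3, -0.353 for NDUFA5, -0.308 for NDUFV2, -0.275 for NDUFS1, -0.249 for NDUFS5 and -0.241 for NDUFA9. Complexes II and III gave -0.263 for SDHA, -0.172 for SDHC and -0.284 for UQCRFS1. Of genes counted with complex IV, COX6B1 gave -0.327, COX7A2L 0.32 and NDUFA4L2 2.77. The 7 called under all 19 alternatives were ATP5MC1, ATP5MC3, ATP5PB, COX7A2L, NDUFA4L2, NDUFA5 and UQCRFS1. The other 11, SDHA, ATP5F1A and NDUFS1 among them, were lost in at least 1 alternative.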

How the results depend on the processing

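Counts of called members, as mitochondrial or nuclear, are given here where they moved by over 1.5 times, and the cause was not tested. The share of all genes called was counted only for the fit reported above. Whether calls over all genes moved alike under these settings is therefore not known. With no filter on low counts, mitochondrial calls for high against low dose were 4 in Glycyrrhizae, 1 in Ginseng, 1 in Sibjeondaebo-tang, 4 in Palmul-tang, 2 in Poria and 12 in Atractylodis, and 5 for medium against low in Sibjeondaebo-tang. Against the vehicle they were 12, 10, 2, 4, 6 and 8 at the high dose and 4, 8, 2, 5, 8 and 5 at the low dose in that order of extracts. For the differences of dose changes they were 1 (Glycyrrhizae minus Ginseng) and 10 (Poria minus Atractylodis). Nuclear calls with no filter were 2 in Sibjeondaebo-tang, 2 in Palmul-tang, 1 in Poria and 3 in Atractylodis for high against low, 1 each in Sibjeondaebo-tang and Poria for medium against low, 32 and 40 in Sibjeondaebo-tang and Poria high against vehicle, 34 in Palmul-tang low against vehicle, and 2 for Poria minus Atractylodis.

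With only the groups compared, Palmul-tang high against low gave 2 mitochondrial and 1 nuclear call. Against the vehicle, mitochondrial calls were 4, 4, 0, 1 and 1 at the high dose in Glycyrrhizae, Ginseng, Sibjeondaebo-tang, Poria and Atractylodis, and 1, 2 and 2 at the low dose in Sibjeondaebo-tang, Palmul-tang and Poria, and nuclear calls 39 in Poria high and 29 in Palmul-tang low. Without TMM, nuclear calls against the vehicle were 4, 21, 11 and 28 at the high dose and 20, 7, 12 and 31 at the low dose in Sibjeondaebo-tang, Palmul-tang, Poria and Atractylodis, mitochondrial calls 1 in Poria high and 1 in Sibjeondaebo-tang low, and nuclear calls for Glycyrrhizae minus Ginseng 9.

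Same-numbered libraries of a code set had a median correlation of deviations of 0.0581 (-0.118 to 0.372), over 0.1 in 37 of 123 pairs, against -0.0287 and 10 of 240 pairs for libraries of different numbers. No label says what a number marks and not every pair was over 0.1, so the numbers were not taken as pairs, though 42 of 51 libraries correlated best with their own number, a hint from the data and not the design. With a replicate block, mitochondrial calls against the vehicle were 4 in Glycyrrhizae high, 2 in Ginseng high, 1 in Atractylodis high, 1 in Sibjeondaebo-tang low and 1 in Poria low, and nuclear calls 8 in Palmul-tang low. Glycyrrhizae high against low had 30 nuclear calls as reported, 34 under the block, 42 with no filter and 23 to 40 when 1 library was left out.

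Ranges of nuclear calls against the vehicle when 1 library was left out follow, with the libraries that moved them most. They were 24 to 50 in Atractylodis high (reported 52; 24 without its replicate 2, 30 without vehicle replicate 2) and 23 to 47 in Atractylodis low (reported 49; 23 without vehicle replicate 2, 31 without its replicate 3). They were 17 to 35 in Palmul-tang high (reported 37; 19 without its replicate 2, 18 without its replicate 3, 17 without vehicle replicate 2) and 4 to 22 in Palmul-tang low (reported 19; 12 and 4 without its replicates 2 and 3, 8 without vehicle replicate 2). They were 10 to 24 in Poria high (reported 24; 10 and 11 without its replicates 2 and 3, 14 and 10 without vehicle replicates 1 and 2) and 15 to 43 in Poria low (reported 38; 15 without its replicate 1, 16 without vehicle replicate 2), then 7 to 14 in Sibjeondaebo-tang high (reported 15; 8 without its replicate 1, 7 without vehicle replicate 2) and 15 to 36 in Sibjeondaebo-tang low (reported 39; 17 without its replicate 2, 15 without vehicle replicate 2). Poria high against low gave 0 to 1 nuclear calls (1 without Poria high replicate 2). Mitochondrial calls ranged from 0 to 1 in Atractylodis low (1 without vehicle replicate 1), Ginseng low (0 without its replicate 1 or 3, or vehicle replicate 2 or 3), Glycyrrhizae low (0 without vehicle replicate 3), Poria high and Sibjeondaebo-tang low (1 without vehicle replicate 1) and Sibjeondaebo-tang high (0 without its replicate 1 or vehicle replicate 3), each against the vehicle. DESeq2, RLE scaling and scaling without the mitochondrial genome moved no such count by over 1.5 times. In Glycyrrhizae high against low and in Glycyrrhizae minus Ginseng, no named member changed direction past the threshold in any alternative. The direction of named members was not checked in the other comparisons.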
